A study of Mus musculus with 12 samples.

Results

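The genes examined were 36 listed microglia genes, chosen by symbol from the 56734 genes of a table of transcript levels. They are split by known role into 11 homeostatic genes, 13 genes shared by microglia and other phagocytes, and 12 reactive genes. They were read in 12 RNA libraries from fluorescence-sorted projection neurons of the wild-type mouse cerebral cortex. The 4 groups were layer 2 neurons at postnatal day 7 (P7), layer 3 neurons at P7, layer 2 neurons at postnatal day 3 (P3) and layer 3 neurons at P3, each with 3 biological replicates of 2 to 3 pooled pups. The neurons of all groups carried the red fluorescent protein mCherry after timed electroporation in utero. The libraries therefore hold microglial RNA only as a minor part of a neuron sort. Layer 2 library names contain a 15 and layer 3 library names a 14, which the labels leave unexplained. Levels are in TPM, transcript numbers corrected for gene length and scaled to the same total in each library. The sequencing depth is unknown.

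Microglia are the resident macrophages of the brain. In the adult, under signals from surrounding cells that include the cytokines Csf1, Il34 and Tgfb1, they hold a homeostatic program marked by surveillance receptors such as P2ry12 and Cx3cr1. In the first postnatal week of the mouse, amoeboid microglia, above all those of developing white matter, engulf dying cells and myelinating glia and carry a reactive program with Spp1, Gpnmb, Lpl, Igf1, Itgax and Clec7a. That program is also known from injury and neurodegeneration.

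Promoter sequences are given for Spp1 and Gpnmb, the members above 0 in every library whose levels spanned the widest range, and for P2ry12, the homeostatic receptor against which Spp1 is set below. Each is the run of 250 bases before the annotated start of the gene, on the strand of the gene, from RefSeq on the mouse build GRCm38.p6. Capitals mark AGGAAGT, the core bound by the myeloid factor PU.1, which the member gene Spi1 encodes. They also mark TCACGTG, an E-box bound by MITF and TFE factors of lysosomal and phagocytic cells, which appears on the other strand as CACGTGA.
Spp1 (chr5:104434861-104435110, plus strand): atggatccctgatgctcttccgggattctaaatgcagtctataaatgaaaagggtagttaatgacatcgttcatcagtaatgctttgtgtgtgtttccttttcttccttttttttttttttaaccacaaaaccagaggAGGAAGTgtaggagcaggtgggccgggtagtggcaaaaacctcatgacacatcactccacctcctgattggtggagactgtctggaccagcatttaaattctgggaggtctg
Gpnmb (chr6:49036268-49036517, plus strand): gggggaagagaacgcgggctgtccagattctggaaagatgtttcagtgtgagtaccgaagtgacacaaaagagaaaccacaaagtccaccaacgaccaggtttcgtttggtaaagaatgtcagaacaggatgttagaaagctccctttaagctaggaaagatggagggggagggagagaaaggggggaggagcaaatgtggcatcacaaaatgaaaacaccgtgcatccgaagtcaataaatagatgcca
P2ry12 (chr3:59262986-59263235, minus strand): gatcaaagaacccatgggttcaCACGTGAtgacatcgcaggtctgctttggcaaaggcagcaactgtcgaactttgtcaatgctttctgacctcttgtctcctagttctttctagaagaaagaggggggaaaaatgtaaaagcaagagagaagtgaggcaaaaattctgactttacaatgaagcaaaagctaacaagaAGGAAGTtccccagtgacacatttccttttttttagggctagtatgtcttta
The Spp1 window, which belongs to the upstream one of its 2 annotated starts, held AGGAAGT with its first base at position -112 from the start. The P2ry12 window held AGGAAGT from position -52 and the E-box from position -228, and the Gpnmb window held neither. Of the 36 members, 26 had an entry in the promoter table, with 31 windows among them. A member counted if any of its windows held the sequence, whereas the shares of all windows are per window. On either strand AGGAAGT was present for 3 of 7 homeostatic genes (Fcrls, P2ry12 and Sall1), 2 of 10 shared genes (C1qb and C1qc) and 1 of 9 reactive genes (Spp1), against 7.69% of all 32851 windows. TCACGTG was present for 2 of 7 homeostatic genes (P2ry12 and Siglech) and for none of the 10 shared and 9 reactive genes, against 3.13% of all windows. The composite element of ETS and IRF factors, whose GGAA can overlap AGGAAGT, was present for 1 of 9 reactive genes (Clec7a) and for no homeostatic or shared gene, against 2.30% of all windows.

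The libraries had between 15349 and 16948 genes at 1 TPM or more, and the 17606 genes that reached 1 TPM in 3 or more libraries were tested. All 36 members passed that filter, 33 of them with at least 1 TPM in every library. Together they made up 0.206% to 1.12% of a library's TPM, with the highest share in P3 layer 2 replicate 2 and the lowest in P7 layer 2 replicate 1. The 16 markers of upper-layer projection neurons all reached 1 TPM in every library, with a mean log2(TPM + 1) of 6.24 to 7.43. The other immune cells were close to undetected. Of these, 8 of 12 monocyte and granulocyte markers (among them Ccr2, Ly6c2, Lcn2 and Camp) and 6 of 8 lymphocyte markers were below 1 TPM in every library, and 3 of the 8 and 4 of the 6 were at 0 throughout. Markers of macrophages at the brain's borders were present, with a summed level of 126.7 to 1480 TPM over 12 genes. Their highest levels were in P3 layer 2 replicate 2 (1480 TPM) and P3 layer 3 replicate 3 (1256 TPM), whereas P3 layer 2 replicates 1 and 3 had 138.7 and 209.4 TPM. Other lists set 3 libraries apart. P3 layer 2 replicate 2 had 909.7 TPM of 7 erythroid genes (126.0 to 304.7 TPM elsewhere), P3 layer 3 replicate 1 had 234.2 TPM of the choroid plexus transcript Ttr (0.0 to 2.20 TPM elsewhere), and P7 layer 3 replicate 1 had 1305 TPM of 11 oligodendrocyte genes (102.5 to 762.6 TPM elsewhere). In bulk libraries such as these, fewer microglia and less RNA of a gene per microglial cell cannot be told apart, which holds for the differences in TPM of the microglia genes.

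The homeostatic genes varied more between the libraries of a group than between the groups. P2ry12, the purinergic receptor by which resting microglia sense nucleotides, had 104, 310 and 196 TPM in P7 layer 2, 284, 166 and 48.6 TPM in P7 layer 3, 102, 230 and 123 TPM in P3 layer 2, and 59.3, 139 and 84.8 TPM in P3 layer 3. The 4 groups overlapped, and the lowest library and the second highest were both of P7 layer 3. Tmem119, a membrane protein that marks microglia as they mature, had 13, 35.4 and 18.8 TPM in P7 layer 2, 33.7, 25.2 and 7.04 TPM in P7 layer 3, 10.6, 20.8 and 6.24 TPM in P3 layer 2, and 5.46, 11.2 and 8.47 TPM in P3 layer 3. Cx3cr1, the receptor for the neuronal chemokine fractalkine, had 30.6, 69.7 and 52.7 TPM in P7 layer 2, 76.3, 55.9 and 21.4 TPM in P7 layer 3, 60.5, 113 and 77.5 TPM in P3 layer 2, and 26.1, 70.4 and 60.3 TPM in P3 layer 3. Both genes overlapped between the ages in each layer and between the layers at each age.

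None of the 11 homeostatic genes was called between the ages in either layer by limma on log2(TPM + 1), and none had an unadjusted p under 0.05 there (0 of 11 in each layer). A call needs a p under 0.05 after Benjamini-Hochberg adjustment across the 17606 genes. The log2 fold change of P7 against P3 in layer 2 was 0.37 ± 0.55 (SE) for P2ry12 (adjusted p = 0.666), 0.83 ± 0.53 for Tmem119 (adjusted p = 0.282) and -0.73 ± 0.45 for Cx3cr1 (adjusted p = 0.265). In layer 3 the corresponding changes were 0.57 ± 0.55 (adjusted p = 0.503), 1.10 ± 0.53 (adjusted p = 0.159) and -0.09 ± 0.45 (adjusted p = 0.914). The Tmem119 change in layer 3 was called without P7 layer 3 replicate 3 (1.73, adjusted p = 0.0253), the library with the lowest homeostatic levels. The median change of the 11 genes was -0.26 in layer 2 and 0.37 in layer 3, beside medians of 0.03 and 0.17 over all genes tested. The other 8 genes, among them the microglial growth factor receptor Csf1r, the identity factor Sall1, the lectin Siglech and the lysophospholipid receptor Gpr34, had ranges that overlapped between the ages in both layers.

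**Figure D1:**
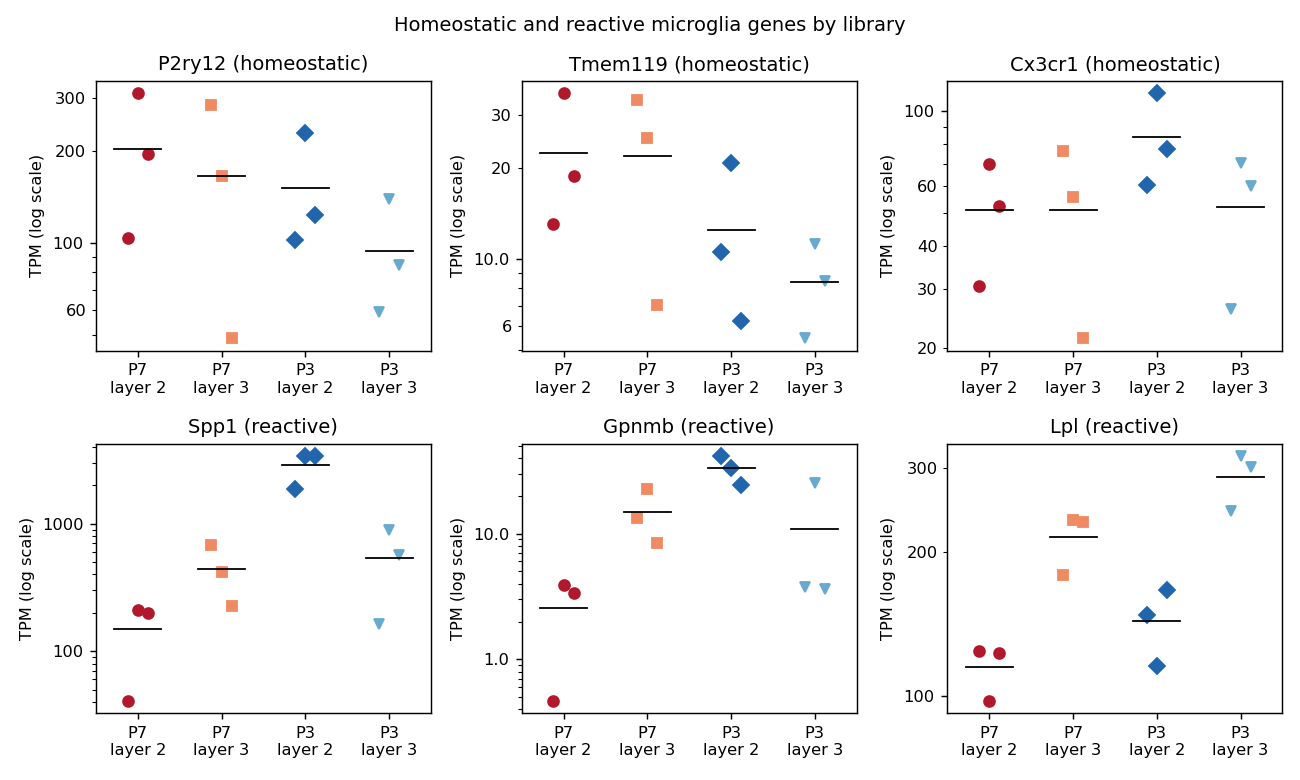
TPM on a log scale for the homeostatic genes P2ry12, Tmem119 and Cx3cr1 (upper row) and the reactive genes Spp1, Gpnmb and Lpl (lower row) in the 4 groups, where each point is 1 library and each line the mean of 3. The homeostatic genes overlap between the groups, the 3 P3 layer 2 libraries have the highest Spp1, at 1876 to 3404 TPM, and Lpl is higher in both layer 3 groups than in the layer 2 group of the same age.

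Reactive genes were lower at P7 than at P3 in layer 2. Of the 12 reactive genes 9 fell and none rose, against 9.33% of all genes called lower, 15.0% called higher and 24.3% called in either direction in this comparison. Their median log2 fold change was -1.49, beside -1.06 for the shared genes, -0.26 for the homeostatic genes and 0.03 for all genes tested. Of the 12, 10 had TPM ranges at P7 entirely below those at P3, as had 6 of 13 shared genes, no homeostatic gene and 20.3% of all genes.

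Spp1, which encodes the secreted matrix protein osteopontin, had 40.5, 211 and 199 TPM in P7 layer 2, 681, 418 and 226 TPM in P7 layer 3, 1876, 3388 and 3404 TPM in P3 layer 2, and 164, 891 and 569 TPM in P3 layer 3. The 3 P3 layer 2 libraries stood above all others and the 3 P7 layer 2 libraries were among the 4 lowest. In layer 2 its mean was 150 ± 95.1 TPM at P7 and 2889 ± 878 TPM at P3 (SD, n = 3 each), 19.25-fold lower at P7. It fell by 4.53 ± 0.65 (SE) on the log2 scale (adjusted p = 0.000269). Gpnmb, a transmembrane glycoprotein of lysosome-rich phagocytes, had 0.466, 3.89 and 3.36 TPM in P7 layer 2, 13.3, 22.8 and 8.42 TPM in P7 layer 3, 41.3, 33.4 and 24.5 TPM in P3 layer 2, and 3.79, 25.1 and 3.62 TPM in P3 layer 3. The P7 layer 2 libraries lay below all those of P7 layer 3 and of P3 layer 2, and 1 of 3 P3 layer 3 libraries reached the levels of P3 layer 2. In layer 2 Gpnmb fell by 3.41 ± 0.61 (adjusted p = 0.00131).

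Igf1, a growth factor that reactive microglia supply to neurons and myelinating cells, had 1.78, 4.54 and 4.94 TPM in P7 layer 2 and 13.1, 20.8 and 12.2 TPM in P3 layer 2. It fell by 1.83 ± 0.42 on the log2 scale (adjusted p = 0.00656). Ccl3, an inflammatory chemokine, had 16.9, 70.7 and 31.7 TPM in P7 layer 2 and 95.6, 178 and 118 TPM in P3 layer 2, a fall of 1.87 ± 0.44 (adjusted p = 0.00762). Lgals3, a galectin of phagocytes, had 10.7, 11.4 and 7.69 TPM in P7 layer 2 and 22.4, 40.0 and 20.7 TPM in P3 layer 2, with a log2 fold change of -1.35 ± 0.29 (adjusted p = 0.00442). None of these 3 genes overlapped between the ages in layer 2. Fabp5, a fatty-acid-binding protein that radial glia and young neurons also make, was far more abundant and less variable. It had 763, 816 and 780 TPM in P7 layer 2, 624, 707 and 598 TPM in P7 layer 3, 1200, 1165 and 1298 TPM in P3 layer 2, and 1150, 817 and 1000 TPM in P3 layer 3. It was lower at P7 by a similar amount in layer 2 (-0.63 ± 0.12, adjusted p = 0.00199) and in layer 3 (-0.61 ± 0.12, adjusted p = 0.00351). Spp1, Gpnmb, Igf1, Ccl3, Lgals3 and Fabp5 kept their layer 2 call under all 22 other settings tried. Without P3 layer 2 replicate 2, which had the most microglial and border macrophage RNA, the log2 fold change of Spp1 was -4.39 (adjusted p = 0.00182).

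The calls of the other 3 reactive genes in layer 2 depended on the libraries included, and those of Cd68 and Itgax also on the processing. Over the 22 other settings the call was lost in 4 for Ccl4, in 6 for Cd68 and in 11 for Itgax. Ccl4, a chemokine expressed together with Ccl3, had 11.2, 30.3 and 10.5 TPM at P7 and 30.5, 81.8 and 40.4 TPM at P3 in layer 2 (-1.54 ± 0.46, adjusted p = 0.0255). Cd68, a lysosomal glycoprotein of phagocytes, had 33.0, 80.8 and 59.9 TPM at P7 and 103, 224 and 132 TPM at P3 in layer 2 (-1.40 ± 0.44, adjusted p = 0.0317). Itgax, the integrin CD11c of the postnatal microglia that supply Igf1, had 0.311, 1.19 and 1.63 TPM at P7 and 3.11, 6.14 and 6.83 TPM at P3 in layer 2 (-1.64 ± 0.56, adjusted p = 0.0474). All 3 had P7 ranges below those of P3. Without P3 layer 2 replicate 2 the adjusted p was 0.125 for Ccl4, 0.140 for Cd68 and 0.135 for Itgax. Without P7 layer 2 replicate 1 it was 0.1 for Ccl4, 0.141 for Cd68 and 0.165 for Itgax. Without P7 layer 2 replicate 3 it was 0.106 for Ccl4, 0.0665 for Cd68 and 0.0663 for Itgax. With no filter on low values Cd68 (adjusted p = 0.0614) and Itgax (adjusted p = 0.0957) were not called, and Itgax was also lost with a pseudocount of 0.1 (adjusted p = 0.0555) or 5 (adjusted p = 0.0552).

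The remaining reactive genes were not called in layer 2. Cd9, a tetraspanin that glial precursors also express, had 215, 680 and 331 TPM in P7 layer 2 and 843, 1182 and 985 TPM in P3 layer 2, with no overlap (-1.44 ± 0.50, adjusted p = 0.0515). Clec7a, a receptor for fungal glucans, had 0.226, 1.70 and 0.772 TPM at P7 and 1.40, 6.20 and 2.09 TPM at P3 (-1.06 ± 0.54, adjusted p = 0.174), and it was listed at 0 in P3 layer 3 replicate 1. Lpl, the lipase that releases fatty acids from lipoproteins and that some neurons also make, had 124, 97.7 and 123 TPM in P7 layer 2 and 148, 116 and 167 TPM in P3 layer 2, which overlapped (-0.31 ± 0.16, adjusted p = 0.190).

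Of the 13 shared genes, 4 fell in layer 2 and none rose: the signalling adaptors Tyrobp and Fcer1g, the transcription factor gene Spi1 and Aif1. Tyrobp, the adaptor DAP12 through which Trem2 signals, had 68.1, 196 and 165 TPM in P7 layer 2, 222, 252 and 86.8 TPM in P7 layer 3, 306, 778 and 373 TPM in P3 layer 2, and 188, 279 and 389 TPM in P3 layer 3. Its P7 and P3 libraries were apart in layer 2, where the log2 fold change was -1.77 ± 0.47 (adjusted p = 0.0135), and overlapped in layer 3. Fcer1g, the Fc-receptor gamma chain, had 49.7, 113 and 111 TPM at P7 and 142, 464 and 182 TPM at P3 in layer 2 (-1.41 ± 0.46, adjusted p = 0.0408). Spi1, the transcription factor PU.1, had 8.28, 26.9 and 19.4 TPM at P7 and 28.3, 71.9 and 37.1 TPM at P3 in layer 2 (-1.31 ± 0.42, adjusted p = 0.0364). Aif1, the actin-binding protein Iba1 of ramified and amoeboid microglia, had 29.2, 60.3 and 48.5 TPM at P7 and 66.5, 178 and 76.1 TPM at P3 in layer 2 (-1.12 ± 0.38, adjusted p = 0.0445).

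None of these 4 calls held without P3 layer 2 replicate 2, where the adjusted p was 0.0717 for Tyrobp, 0.189 for Fcer1g, 0.168 for Spi1 and 0.204 for Aif1. Nor did they hold without P7 layer 2 replicate 1, where it was 0.0688 for Tyrobp, 0.172 for Fcer1g, 0.166 for Spi1 and 0.180 for Aif1. Of the 22 other settings, the call was lost in 3 for Tyrobp, 6 for Spi1, 7 for Fcer1g and 8 for Aif1. With no filter on low values the adjusted p was 0.0778 for Fcer1g, 0.0683 for Spi1 and 0.0823 for Aif1. Macrophages at the brain's borders share these genes, and their markers, none of 12 called, summed to 126.7 to 394.4 TPM in P7 layer 2 and 138.7 to 1480 TPM in P3 layer 2. Their part in the shared genes' result was not tested. The complement genes C1qa, C1qb and C1qc, which encode the chains of the C1q opsonin that tags material for engulfment, were not called in layer 2 (adjusted p of 0.0907, 0.0635 and 0.0713). C1qa had 67.1, 181 and 148 TPM in P7 layer 2 and 173, 451 and 204 TPM in P3 layer 2, and its ranges overlapped. Trem2, the lipid-sensing receptor of phagocytic microglia, had 18.1, 62.6 and 28.5 TPM in P7 layer 2 and 58.1, 77.2 and 69.7 TPM in P3 layer 2 (-1.06 ± 0.51, adjusted p = 0.151). The integrin Itgam (-0.22 ± 0.51, adjusted p = 0.789) had the smallest layer 2 change of the 13.

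**Figure D2:**
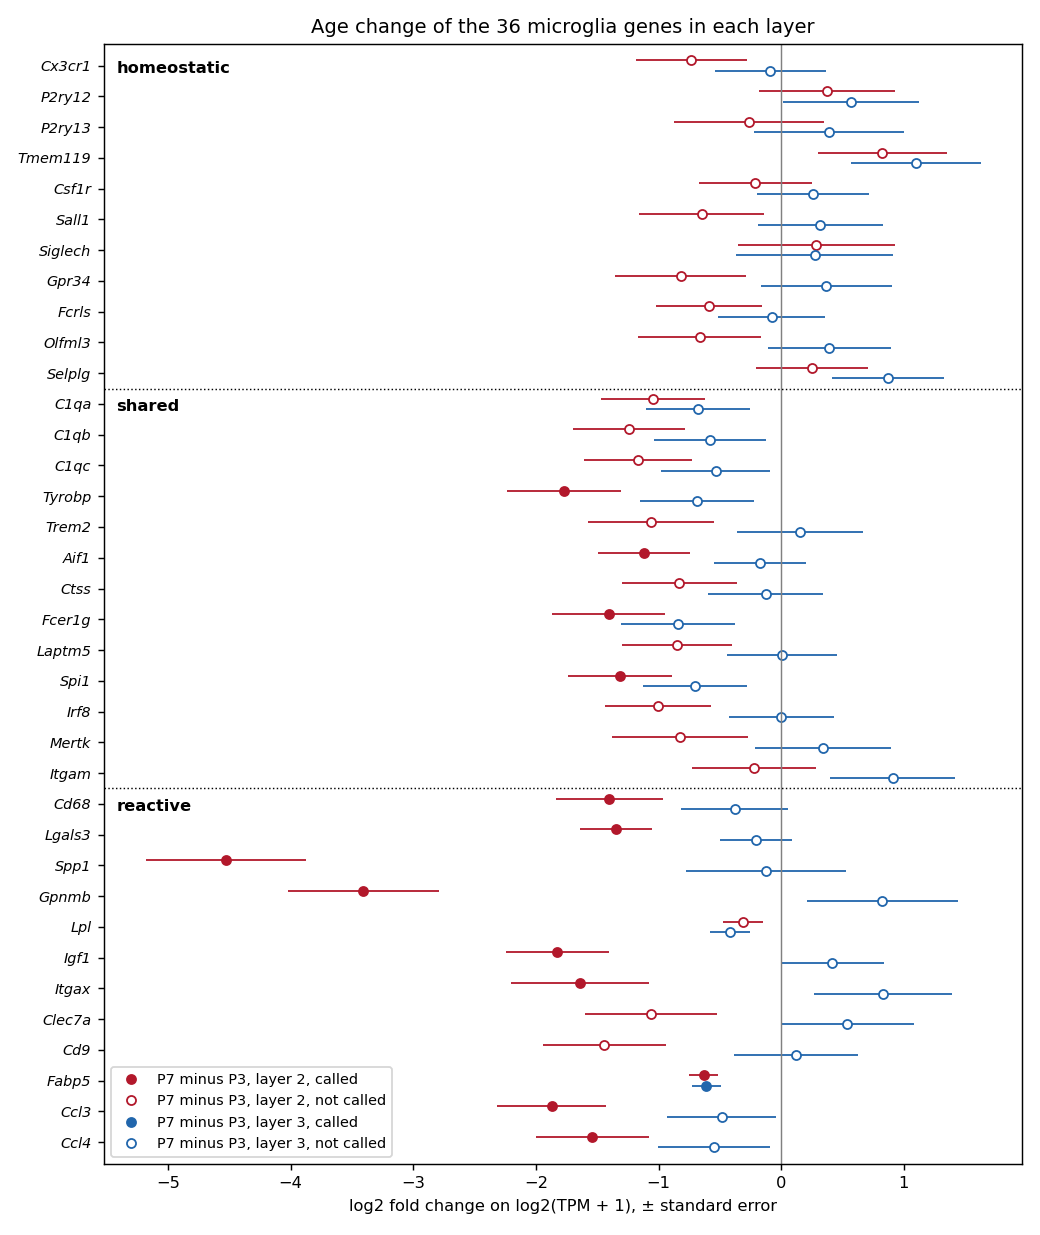
Log2 fold change of P7 against P3 with its SE for the 36 members in layer 2 and in layer 3, where filled points are genes called at an adjusted p under 0.05. In layer 2 the 13 called genes are all lower and come from the shared and reactive lists, with Spp1 at -4.53 and Gpnmb at -3.41, and in layer 3 Fabp5 is the 1 called gene.

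In layer 3, Fabp5 alone of the 36 was called between the ages, against 6.42% of all genes called lower, 14.4% called higher and 20.8% called in either direction. The median log2 fold change was -0.16 for the reactive genes and -0.17 for the shared genes, beside 0.17 for all genes tested. Spp1 had overlapping ranges and a change of -0.12 ± 0.65 (adjusted p = 0.916), whose sign turned positive when any of 3 layer 3 libraries was left out. Gpnmb had a change of 0.82 ± 0.61 (adjusted p = 0.371), and it was called as higher at P7 (1.65, adjusted p = 0.0243) without P3 layer 3 replicate 2, the library that held 25.1 TPM, and under array weights (1.71, adjusted p = 0.00743). Lpl had 179, 234 and 232 TPM in P7 layer 3 and 244, 318 and 301 TPM in P3 layer 3, which did not overlap (-0.42 ± 0.16, adjusted p = 0.0861), as 11.3% of all genes did not in that direction. It was called under median-ratio scaling (-0.62, adjusted p = 0.0225) and array weights (-0.41, adjusted p = 0.00946). Array weights called 11 of the 36 members in this comparison, and the share of all genes called under that setting was not counted. The remaining reactive and shared genes overlapped between the ages in layer 3.

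Averaged over the layers, 8 reactive and 6 shared genes were lower at P7, and none of the 36 was higher, against 12.8% of all genes called lower and 23.6% called higher (36.3% in either direction). Genes called here and in neither layer alone included the 3 C1q genes, with changes of -0.86 ± 0.30 for C1qa (adjusted p = 0.0381), -0.91 ± 0.32 for C1qb (adjusted p = 0.0406) and -0.85 ± 0.31 for C1qc (adjusted p = 0.0478). Lpl was likewise called only in the average (-0.36 ± 0.12, adjusted p = 0.0250). Tyrobp (-1.23, adjusted p = 0.0103), Fcer1g (-1.13, adjusted p = 0.0161), Spi1 (-1.01, adjusted p = 0.0177), Lgals3 (-0.78, adjusted p = 0.00969), Spp1 (-2.33, adjusted p = 0.00149), Ccl3 (-1.18, adjusted p = 0.00988) and Fabp5 (-0.62, adjusted p = 9.43e-05) kept this call under every other setting. Cd68 (-0.89, adjusted p = 0.0374), Gpnmb (-1.29, adjusted p = 0.0326) and Ccl4 (-1.04, adjusted p = 0.0224) did not, nor did the C1q genes and Lpl. Without P7 layer 2 replicate 1, for example, the adjusted p was 0.0941 for Cd68, 0.0819 for Gpnmb, 0.0555 for Ccl4 and 0.0936 for C1qa.

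The difference between the 2 age changes was tested directly and was not called by limma for any member, while 0.182% of all genes were called (0.119% higher and 0.0625% lower). Of the members 7, all reactive and all lower, had an unadjusted p under 0.05. The shares just given are for the adjusted p, and the share of all genes at the unadjusted threshold was not counted. Subtracting the layer 3 change, the layer 2 change was -4.40 ± 0.92 for Spp1 (adjusted p = 0.0772) and -4.23 ± 0.87 for Gpnmb (adjusted p = 0.0751). The median over the 12 reactive genes was -1.47, beside -0.09 for all genes. Both genes were called without P3 layer 3 replicate 2 (Spp1 -4.92, adjusted p = 0.0417, and Gpnmb -5.05, adjusted p = 0.0115). They were also called under array weights, which down-weight noisier libraries (Spp1 -3.93, adjusted p = 0.00935, and Gpnmb -4.99, adjusted p = 0.00157). Each gene stayed not called in 19 of the 22 other settings. The limma adjusted p reached 0.344 for Spp1 and 0.338 for Gpnmb, and the change was as small as -3.18 for Spp1 and -2.86 for Gpnmb.

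Between the layers at P3, 3 of 12 reactive genes were higher in layer 2 and 1 was lower. Of all genes 4.87% were called higher and 4.18% lower (9.05% in either direction). Over all 36 members the share called in either direction was close to that 9.05%. No homeostatic or shared gene was called by limma, and of these Gpr34 alone had an unadjusted p under 0.05. Lgals3 had 22.4, 40.0 and 20.7 TPM in P3 layer 2 and 5.55, 8.50 and 4.13 TPM in P3 layer 3, and its log2 fold change of layer 2 against layer 3 was 2.01 ± 0.29 (adjusted p = 0.00127). Spp1 was higher in every P3 layer 2 library than in any of P3 layer 3, by 2.67 ± 0.65 (adjusted p = 0.0227). Cd9 had 843, 1182 and 985 TPM in P3 layer 2 and 178, 408 and 238 TPM in P3 layer 3 (1.94 ± 0.50, adjusted p = 0.0298). Lpl went the other way, with 148, 116 and 167 TPM in P3 layer 2 and 244, 318 and 301 TPM in P3 layer 3 (-1.0 ± 0.16, adjusted p = 0.00263). The calls of Lgals3 and Lpl held under every other setting. Spp1 was not called without P3 layer 2 replicate 2 (adjusted p = 0.0875), P3 layer 2 replicate 3 (adjusted p = 0.0771) or P3 layer 3 replicate 1 (adjusted p = 0.0830), nor without the 3 libraries set apart above (adjusted p = 0.192). Cd9 was not called when any 1 of 5 P3 libraries was left out (adjusted p of 0.0527 to 0.111).

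All 11 homeostatic and 13 shared genes had a positive fold change of layer 2 over layer 3 at P3, with medians of 0.74 and 0.52, beside 1.06 for the reactive genes and 0.06 for all genes. Radial glial markers moved with the layers at P3: all 10 were called higher in layer 2, with a summed 4240 to 6985 TPM in P3 layer 2 and 752.5 to 1895 TPM in P3 layer 3, against 4.87% of all genes, and none was at 0. The same held for 14 of 16 cell-cycle genes, with a summed 740.9 to 928.1 TPM in P3 layer 2 and 267.5 to 394.8 TPM in P3 layer 3. It also held for 6 of 12 astrocyte markers, with 760.4 to 851.2 TPM in P3 layer 2 and 176.0 to 462.4 TPM in P3 layer 3. Of 11 oligodendrocyte markers 2 were higher in layer 2 at P3, and all 11 had a positive fold change (median 1.17). Of the 16 upper-layer neuron markers 10 were lower and 1 was higher in layer 2 at P3 (median -0.68), against 4.18% of all genes called lower. Between the ages in layer 2, 15 of 16 cell-cycle genes fell against 9.33% of all genes. Of 10 radial glial markers, 3 fell and 1 rose (Hopx). The summed radial glial level was 1086 to 2904 TPM in P7 layer 2 and 4240 to 6985 TPM in P3 layer 2. The part of these cells in the levels of Fabp5, Cd9, Lgals3, Lpl and the other reactive genes was not tested.

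At P7, Lpl was the 1 member called between the layers, against 0.381% of all genes called lower in layer 2 and 0.119% called higher (0.500% in either direction). It had 124, 97.7 and 123 TPM in P7 layer 2 and 179, 234 and 232 TPM in P7 layer 3 (-0.89 ± 0.16, adjusted p = 0.0311). The 2 groups did not overlap, but the call was lost when any 1 of the P7 layer 2 libraries was left out, or either of P7 layer 3 replicates 2 and 3, with adjusted p of 0.0719 to 0.165. Spp1 (-1.73 ± 0.65, adjusted p = 0.366) and Gpnmb (-2.23 ± 0.61, adjusted p = 0.166) had P7 layer 2 libraries that all lay below those of P7 layer 3, as 11.9% of all genes did, and were not called. Averaged over the ages, Lgals3 (1.44 ± 0.21, adjusted p = 0.00111) and Fabp5 (0.30 ± 0.09, adjusted p = 0.0461) were higher in layer 2 and Lpl (-0.95 ± 0.12, adjusted p = 0.000448) was lower. Of all genes 4.03% were called higher and 3.90% lower (7.93% in either direction), so 2 higher and 1 lower of 36 members are close to the background. The Fabp5 call was lost in 14 of the 22 other settings, among them without P7 layer 3 replicate 3 (adjusted p = 0.119).

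The summed level of the members differed between libraries of a group, and reactive genes were also set against homeostatic genes of the same library. The log2 ratio of Spp1 to P2ry12, each with 1 TPM added, was -1.34, -0.55 and 0.02 in P7 layer 2, 1.26, 1.33 and 2.19 in P7 layer 3, 4.18, 3.88 and 4.77 in P3 layer 2, and 1.45, 2.68 and 2.73 in P3 layer 3. The P7 layer 2 libraries lay below those of P7 layer 3 and of P3 layer 2, the P3 layer 2 libraries lay above those of P3 layer 3, and the ages overlapped in layer 3. The same order of P7 layer 2 below P7 layer 3 and below P3 layer 2 was found for Spp1 and Gpnmb over each of P2ry12, Tmem119 and Cx3cr1. The log2 ratio of Gpnmb to Tmem119 had medians of -2.90 in P7 layer 2, -0.14 in P7 layer 3, 1.82 in P3 layer 2 and -0.43 in P3 layer 3. Lpl over Cx3cr1 differed from these, with medians of 1.21 in P7 layer 2, 2.05 in P7 layer 3, 1.10 in P3 layer 2 and 2.30 in P3 layer 3. It overlapped between the ages in both layers.

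Each member was then set against the mean log2(TPM + 1) of the 11 homeostatic genes of its library. In layer 2, 10 of 12 reactive and 11 of 13 shared genes had P7 libraries entirely below the P3 libraries on this relative scale, against 4.29% of all genes below and 6.88% above. The exceptions were Lpl and Fabp5 among the reactive genes and Mertk and Itgam, both receptors for engulfment, among the shared genes. In layer 3 it was 1 of 12 reactive genes (Cd68) and 6 of 13 shared genes (C1qb, C1qc, Tyrobp, Ctss, Laptm5 and Spi1), against 2.02% of all genes below and 2.10% above. At P7, 6 of 12 reactive genes (Cd68, Spp1, Gpnmb, Igf1, Itgax and Clec7a) were lower in every layer 2 library than in any layer 3 library, against 0.744% of all genes. At P3, 4 reactive genes (Lgals3, Spp1, Igf1 and Cd9) were higher in layer 2, against 2.18% of all genes, and Lpl was lower, against 25.0%. Subtracting a mean that varies between libraries alters the share for genes that do not follow it, so these shares depend on the scale. On TPM itself, 20.3% of all genes lay lower at P7 in layer 2 and 11.3% in layer 3. Between the layers at P7 it was 11.9%, with 3 of 12 reactive genes lower and 2 higher in layer 2.

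**Figure D3:**
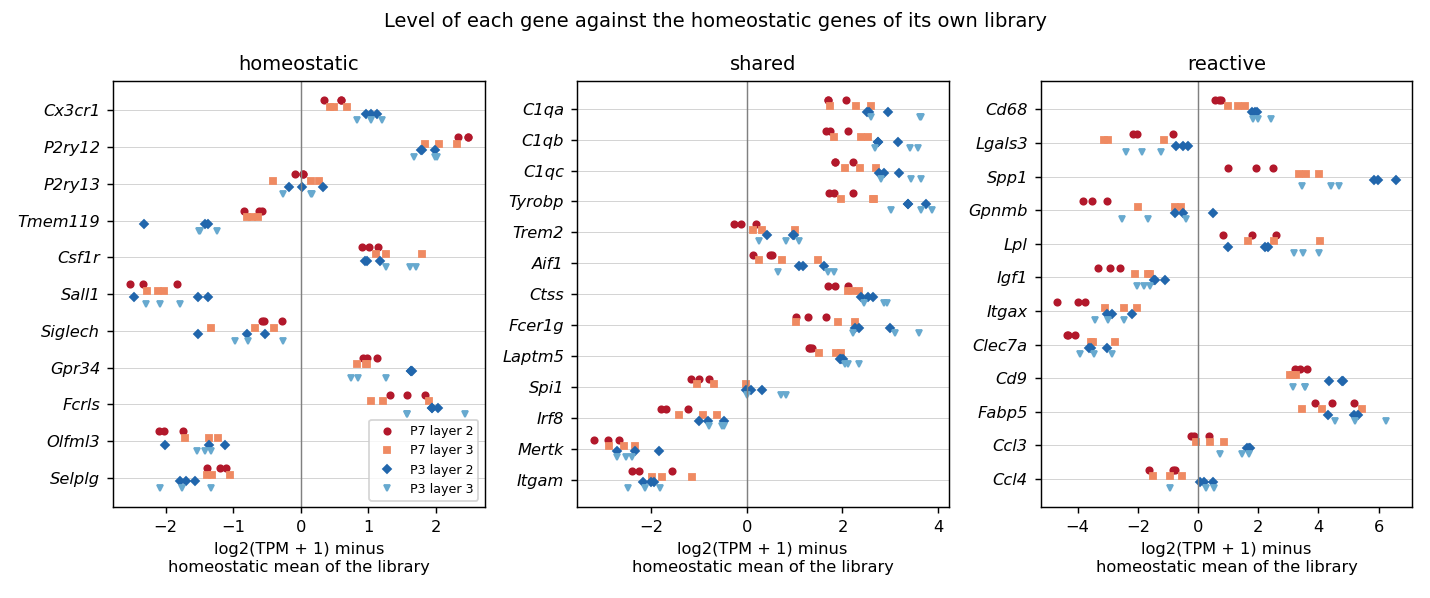
Level of each of the 36 members minus the homeostatic mean of its library, as a difference of log2(TPM + 1) values, for homeostatic, shared and reactive genes, where each point is 1 library and the vertical line marks 0. The P7 layer 2 points lie to the left of the P3 layer 2 points for 10 of 12 reactive and 11 of 13 shared genes, and for Spp1 the medians are 1.92 in P7 layer 2, 3.58 in P7 layer 3, 5.975 in P3 layer 2 and 4.42 in P3 layer 3.

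The homeostatic genes did not all keep step with each other. In layer 2, Tmem119 relative to the homeostatic mean was -0.57 to -0.84 at P7 and -1.37 to -2.32 at P3. P2ry12 was 2.33 to 2.48 at P7 and 1.79 to 1.98 at P3, and Selplg, a selectin ligand, was also higher at P7 with no overlap. Cx3cr1 was 0.34 to 0.60 at P7 and 0.97 to 1.12 at P3, and Gpr34 and Fcrls, an Fc-receptor-like protein of mouse microglia, were likewise lower at P7. In layer 3, Tmem119 was higher (-0.63 to -0.79 at P7 and -1.23 to -1.51 at P3) and Cx3cr1 lower (0.44 to 0.69 at P7 and 0.83 to 1.20 at P3), and the other 9 overlapped. These relative levels use the members themselves as the baseline and are given as a description.

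With that homeostatic mean as a covariate in the fit, where the 11 homeostatic genes are not counted, 10 of 12 reactive and 11 of 13 shared genes were lower at P7 in layer 2. Of all genes 10.5% were called lower, 15.6% higher and 26.1% in either direction. The covariate is built from members. In layer 2 it lowered the SE of Tyrobp (from 0.47 to 0.22) and Cd68 (from 0.44 to 0.16), and not that of Fabp5 (0.12 in both fits). The shares of all genes in this fit are therefore not a like background for genes that follow the covariate. Spp1 had a log2 fold change of -4.30 (adjusted p = 2.9e-06), and Cd9 reached the threshold (-1.24, adjusted p = 8.7e-05). In layer 3, 3 reactive genes (Cd68 at -0.72, Fabp5 at -0.60 and Ccl3 at -0.80) and 7 shared genes were lower, against 6.90% of all genes called lower, 14.0% called higher and 20.9% called in either direction. The difference of the age changes was called for Spp1 alone (-3.71, adjusted p = 0.0138), against 0.0738% of all genes called lower, 0.0966% called higher and 0.170% called in either direction. At P7 this fit also called Spp1 (-1.88, adjusted p = 0.0281) and Igf1 (-1.13, adjusted p = 0.0392) lower in layer 2 than in layer 3, besides Lpl. Of all genes 0.511% were called lower, 0.278% higher and 0.790% in either direction. At P3 it called Lgals3 (1.90), Spp1 (1.83, adjusted p = 0.0131) and Cd9 (1.21) higher in layer 2 and Lpl (-0.92) lower, against 2.95% of all genes called higher, 2.60% called lower and 5.55% called in either direction.

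Lpl and Fabp5 spanned a narrow range over the libraries. The highest library exceeded the lowest 3.25-fold for Lpl and 2.17-fold for Fabp5, against 84.0-fold for Spp1, 88.8-fold for Gpnmb and 5.28-fold for Cx3cr1. P3 layer 3 replicate 1 held 26.1 TPM of Cx3cr1 and 5.46 TPM of Tmem119, the lowest Tmem119 level of the 12, with 244 TPM of Lpl, above all 6 layer 2 libraries.

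**Figure D4:**
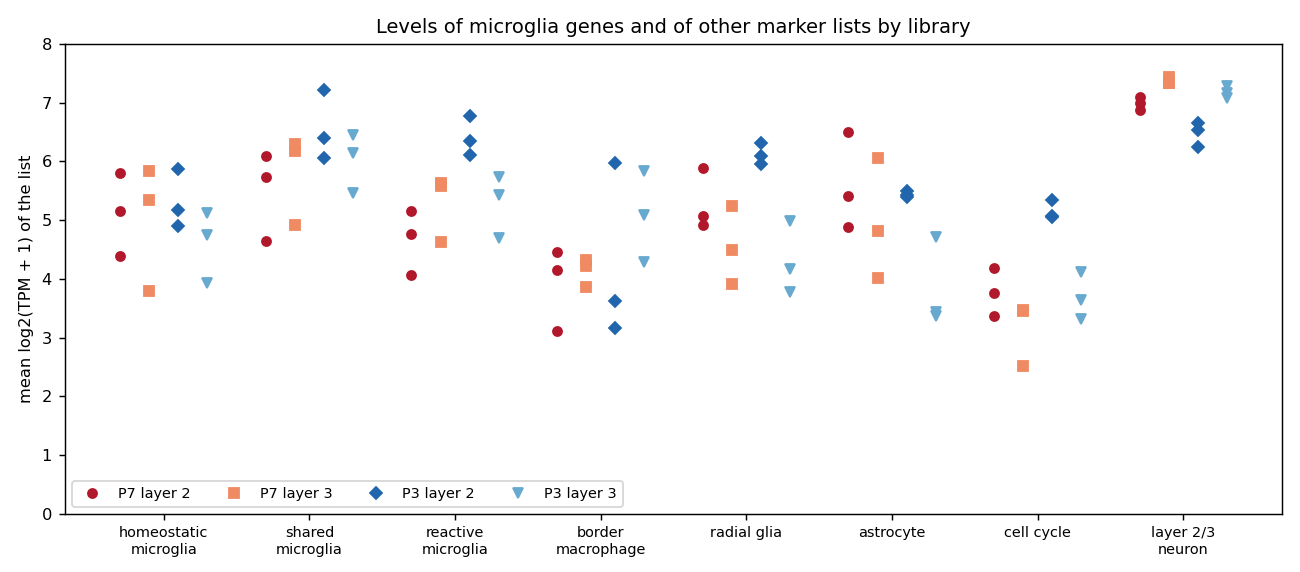
Mean log2(TPM + 1) of the homeostatic, shared and reactive genes and of other lists in each library, where each point is 1 library. The reactive mean spans 4.07 in P7 layer 2 replicate 1 to 6.77 in P3 layer 2 replicate 2, and the homeostatic mean spans 3.80 in P7 layer 3 replicate 3 to 5.87 in P3 layer 2 replicate 2.

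Genes of the same programs outside the 36 were counted from 2 further lists. Like the members, these lists were chosen with earlier results of these data known. They were read in the same 12 libraries, so their counts are not independent support. Of 33 other genes of reactive and phagocytic microglia, 13 were lower and 1 was higher at P7 in layer 2, against 9.33% and 15.0% of all genes. In layer 3, 2 were lower and 1 was higher, against 6.42% and 14.4% of all genes, a share of lower genes close to the background. The median change was -0.94 in layer 2 and -0.15 in layer 3. The largest falls in layer 2 were of 2 chemokines. Ccl9 had 1.87, 7.01 and 7.87 TPM at P7 and 21.7, 50.8 and 37.3 TPM at P3 (-2.60 ± 0.62, adjusted p = 0.00791). Ccl6 had 5.18, 16.8 and 10.7 TPM at P7 and 33.7, 73.4 and 65.9 TPM at P3 (-2.35 ± 0.54, adjusted p = 0.00623). The galectin Lgals1, which many cell types make, fell in layer 2 (-2.18 ± 0.36, adjusted p = 0.00071) and in layer 3 (-1.39 ± 0.36, adjusted p = 0.0152). Ank, which exports pyrophosphate from cells, rose by 1.0 ± 0.16 in layer 2 (adjusted p = 0.000456) and 1.02 ± 0.16 in layer 3 (adjusted p = 0.000599). Of 30 other general microglia genes, 3 were lower and 1 higher in layer 2, and 1 was lower and 1 higher in layer 3. The shares of lower genes were near or under the same backgrounds and those of higher genes were under them, so these counts do not set the list apart. Those lower in layer 2 were Ly86, a partner of an innate immune receptor (-1.74 ± 0.40, adjusted p = 0.00682), the endotoxin co-receptor Cd14 (-1.17 ± 0.37, adjusted p = 0.0360) and the G-protein regulator Rgs10 (-1.12 ± 0.33, adjusted p = 0.0225). Mef2a, a transcription factor also present in neurons, was higher in both layers. Tgfbr1, the Tgfb1 receptor, was lower at P7 in layer 3 (-1.46 ± 0.34, adjusted p = 0.00919) and lower in layer 2 than in layer 3 at P3 (-1.40 ± 0.34, adjusted p = 0.0229).

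The ligands Cx3cl1 and Il34 rose with age in both layers. Cx3cl1, the fractalkine that neurons present to Cx3cr1, had 345, 244 and 333 TPM in P7 layer 2, 449.7, 351 and 359 TPM in P7 layer 3, 39.4, 29.6 and 29.9 TPM in P3 layer 2, and 42.9, 55.8 and 54.0 TPM in P3 layer 3. It was higher in every P7 library than in any P3 library and rose by 3.18 ± 0.17 in layer 2 (adjusted p = 1.3e-07) and 2.90 ± 0.17 in layer 3 (adjusted p = 7.17e-07). Il34, the neuronal ligand of Csf1r, had 42.9, 20.7 and 49.7 TPM in P7 layer 2, 32.4, 40.2 and 26.4 TPM in P7 layer 3, 1.14, 0.611 and 2.39 TPM in P3 layer 2, and 7.84, 3.45 and 2.23 TPM in P3 layer 3. It rose by 4.0 ± 0.40 in layer 2 (adjusted p = 1.53e-05) and 2.74 ± 0.40 in layer 3 (adjusted p = 0.000457). Csf1, the other ligand of Csf1r and a gene that reactive microglia also express, had 4.17, 6.81 and 5.24 TPM in P7 layer 2, 22.3, 14.1 and 5.04 TPM in P7 layer 3, 20.0, 22.1 and 28.7 TPM in P3 layer 2, and 5.03, 20.4 and 7.62 TPM in P3 layer 3. It fell in layer 2 (-1.94 ± 0.48, adjusted p = 0.00917) and overlapped between the ages in layer 3 (0.31, adjusted p = 0.685). Tgfb1 was not called in layer 2 (-0.70, adjusted p = 0.226) or layer 3 (-0.56, adjusted p = 0.344).

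Of 17 ligands and signals to microglia listed, 15 were tested, and 6 were higher and 1 was lower at P7 in each layer. Of all genes 15.0% were called higher in layer 2 and 14.4% in layer 3, and 9.33% and 6.42% lower, so the 1 lower gene of 15 is near the background. Besides Cx3cl1 and Il34, the risers in both layers were the don't-eat-me signal Cd47, the inhibitory ligand Cd200, the amyloid precursor App and the apolipoprotein Clu. Csf1 was the 1 lower gene in layer 2, and Mif, a cytokine, was the 1 lower gene in layer 3 (-1.01 ± 0.19, adjusted p = 0.00262). While Cx3cl1 and Il34 rose, their receptors Cx3cr1 and Csf1r were not called between the ages in either layer in the reported fit (Csf1r at -0.21 ± 0.46 in layer 2 and 0.26 ± 0.46 in layer 3). Relative to the homeostatic mean, Cx3cr1 was lower at P7 in both layers, as described above, and Csf1r overlapped between the ages.

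**Figure D5:**
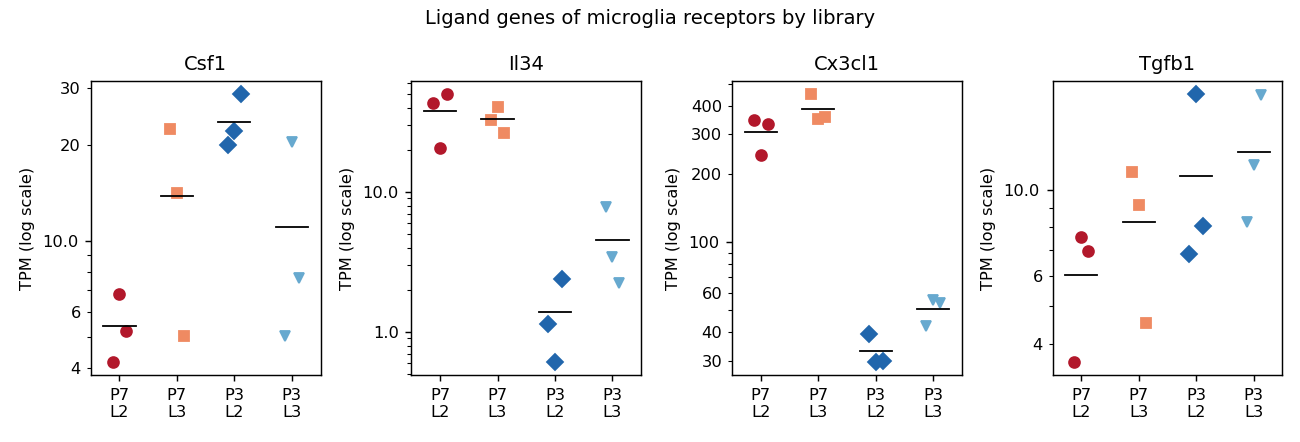
TPM on a log scale of the ligands Csf1, Il34, Cx3cl1 and Tgfb1 in layer 2 (L2) and layer 3 (L3) at P7 and P3, where each point is 1 library and each line the mean of 3. Cx3cl1 lies at 244 TPM or more in all P7 libraries and at 55.8 TPM or less in all P3 libraries, and Csf1 is lower in P7 layer 2 than in P3 layer 2.

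Genes that respond to tissue dissociation, which can change microglial transcripts during a sort, were mostly not called. Of 18 such genes, 1 fell in layer 2 between the ages (Nfkbia, -0.57 ± 0.18, adjusted p = 0.0388) and 2 rose in layer 3 (Egr1, 1.39 ± 0.32, adjusted p = 0.00770, and Btg2, 1.62 ± 0.45, adjusted p = 0.0210). Of all genes 9.33% were called lower in layer 2 and 14.4% higher in layer 3, so these age counts do not set the list apart. Egr1 and Btg2 were also the 2 higher in layer 2 than in layer 3 at P3, against 4.87% of all genes. The summed level of the 18 genes was 739.4 to 1416 TPM in P7 layer 2 and 806.6 to 1265 TPM in P3 layer 2, which overlapped. The part of dissociation in the levels of the reactive genes, Ccl3 and Ccl4 among them, was not tested.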

How the data were processed

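The values used are the TPM that the authors deposited for 12 libraries, 3 per group. Per the labels' protocols, mCherry-positive neurons were sorted by fluorescence, RNA was extracted (RNeasy mini kit) and made into libraries (SMART-Seq mRNA LP kit). The submitters' processing notes name HISAT2, StringTie, featureCounts and the build GRCm39, and versions, strand setting and the treatment of shared reads are not given in the sources used here. TPM keep no read depth, so depth and counting error are unknown, and reads shared by close relatives leave the levels of such genes uncertain (Ccl3 and Ccl4 and the 3 C1q genes among the members).

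Of 56734 genes, the 17606 that reached 1 TPM in 3 or more libraries were fitted as log2(TPM + 1), which understates changes of low genes, with 1 mean per group and limma-trend (limma 3.58.1, R 4.3.3, 8 residual degrees of freedom). Called means a p under 0.05 after Benjamini-Hochberg adjustment across the 17606 genes, in each of 7 comparisons. The smallest p of an exact permutation test with 3 libraries a side is 0.1, so the moderated model alone carries the calls. Medians and counts of the members are given without a test. All members, the called genes with the largest changes of each other list (up to 3 per direction) and the ligands Csf1, Il34, Cx3cl1 and Tgfb1 could be named. The members, their split by role and the lists were chosen with earlier results of these data known.

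Each result was recomputed with a pseudocount of 0.1 or 5, with a 5 TPM filter or none, after quantile normalization or median-ratio scaling, with array weights, a replicate block or the homeostatic mean as a covariate, with each library left out in turn and, chosen after seeing the data, P3 layer 2 replicate 2, P3 layer 3 replicate 1 and P7 layer 3 replicate 1 left out together (22 settings besides the reported one). Promoters are RefSeq windows of GRCm38.p6, matched by symbol, and no coordinates were used with the TPM.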

Additional observations from a re-analysis of the deposited data

How the results depend on the processing

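The count of members called between the ages in layer 2 (13, all lower) was 8 with no filter, 21 of 25 with the homeostatic covariate, 7 without the 3 libraries that stood apart, and 6 to 16 with 1 library left out. In layer 3 (1) it was 2 with median-ratio scaling, 11 with array weights, 10 with the covariate and 1 to 3 with 1 library left out. Averaged over the layers (14) it was 9 with no filter, 9 without the 3 libraries, and 8 to 14 with 1 left out. Between the layers at P7 (1) it was 0 with no filter or median-ratio scaling, 2 with array weights, 3 with the covariate and 0 to 2 with 1 left out. At P3 (4) it was 9 with array weights, 2 without the 3 libraries and 2 to 5 with 1 left out, and over the ages (3) it was 2 to 4 with 1 left out. For the difference of the age changes (0) it was 1 with the replicate block, 5 with array weights, 1 with the covariate and 0 to 2 with 1 left out. The shares of all genes called were counted for the reported fit and the covariate fit only. For the other settings, a shift in the members cannot be told from a shift in all genes.

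The log2 fold change in layer 3 turned to 0.18, 0.07 and 0.43 for Cx3cr1, and to 0.39, 0.07 and 0.29 for Spp1, without P3 layer 3 replicate 2, P3 layer 3 replicate 3 and P7 layer 3 replicate 3 (leaving out any 1 library gave -0.52 to 0.43 for Cx3cr1 and -0.83 to 0.39 for Spp1), and to -0.27 for P2ry12 without the 3 libraries. With a pseudocount of 5 the P7 layer 2 ratio of Gpnmb to Tmem119 had a median of -1.72, against -2.90. The causes were not tested. Median-ratio and quantile scaling shifted the median of all genes by -0.17 and -0.19 in layer 3 and by -0.11 and -0.12 over the layers, and changed the difference of the age changes by 0.12 and 0.11. Of 48 results, 21 kept their direction and side of the threshold under every setting.

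The correlation of deviations from the group means was -0.189 to 0.214 (median 0.0386) for same-numbered libraries of different groups, over 0.1 in 5 of 18 pairs. For differently numbered libraries it was -0.267 to 0.284 (median -0.0213), over 0.1 in 5 of 36 pairs. With 3 libraries a group, these values do not settle whether replicate numbers pair the libraries. The replicate block left other counts within 1.5 times.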
